A study of Mus musculus with 30 samples.

Results

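The comparison covers 6 of the 30 libraries of a mouse series on macrophages and vitamin A: podoplanin-positive (PDPN+) stromal cells, labelled om_pdpn and read here as omental, that were cultured across a transwell membrane from macrophages (transwell replicates 1 to 3), and the same kind of cells cultured alone (alone replicates 1 to 3). They were chosen by their titles. PolyA RNA from all 6 was sequenced and counted per gene. The labels give no strain, age, sex, culture time or number of animals, and name no treatment in either group beyond the macrophages on the other side of the membrane. Each batch label (mbb336, mbb339 and mbb340) holds the library of the same replicate number from both groups, and nothing says whether replicates are separate animals, so the statistics measure only the spread between these libraries. PDPN+ cells from direct co-culture with macrophages and PDPN+ cells given 1 uM BMS493 (3 libraries each) were used for the estimate of spread. BMS493 is an inverse agonist of retinoic acid receptors, and the titles of its libraries do not say whether macrophages were present. The co-culture cells also served for a contact comparison.

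Podoplanin marks fibroblast-like stromal cells and also the mesothelial cells that line the omentum, a fatty apron in the belly. Omental stroma makes retinoic acid from vitamin A through aldehyde dehydrogenases, and cavity macrophages depend on such signals. A transwell membrane lets soluble factors pass while keeping the cells apart, so the design asks what macrophages do to stromal cells without contact. Stromal cells are known to answer macrophage cytokines with chemokines and acute phase proteins.

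Stromal markers were present in all 6 libraries, and 2 of the libraries stood apart from the rest. Pdpn itself (chromosome 4, 143267431 to 143299564, GRCm38) lay at 275, 207 and 189 CPM (counts relative to library size, scaled by TMM) in transwell replicates 1, 2 and 3, against 234, 193 and 233 CPM in the cells alone. All 22 fibroblast markers had counts in every library of both groups, and their summed level was 16937 to 31090 CPM in transwell cells and 10488 to 31161 CPM in cells alone, against 182 to 392 CPM in the transwell macrophages. Summed B cell, T cell, mast cell and granulocyte markers each stayed at or under 7.59 CPM in all 6 libraries, and 12 endothelial and pericyte markers summed to 38.96 to 48.3 CPM in transwell cells and 28.1 to 92.5 CPM in cells alone. Depth was 29350158 to 43999182 counts, with 24525 to 26117 genes detected.

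Transwell replicate 1 and alone replicate 3 had a different make-up from the other libraries. Genes of the mitochondrial genome took 2.996% of the counts in transwell replicate 1, against 1.07% and 1.02% in transwell replicates 2 and 3. In the cells alone they took 3.35% in replicate 3, against 1.26% and 0.802% in replicates 1 and 2. The other 10 PDPN+ libraries lay between 0.555% and 1.26%, so both libraries were outside that range. Genes for ribosomal proteins, the protein components of the translation machinery, showed the same split, with 5.10% of counts in transwell replicate 1 and 5.58% in alone replicate 3, against 1.55% to 2.13% in the other 4 libraries compared.

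**Figure D1:**
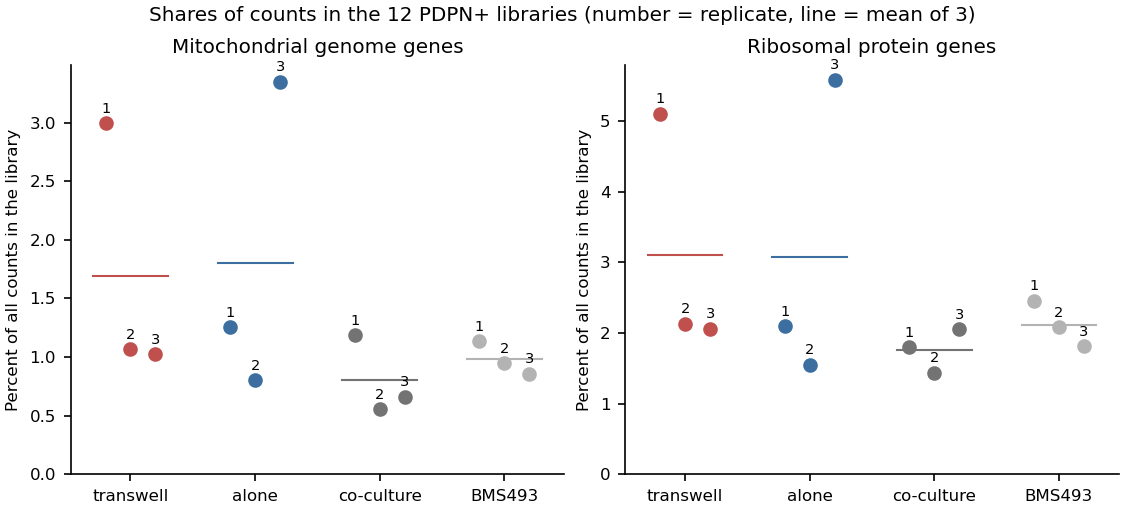
Percent of all counts from mitochondrial genome genes (left panel) and from ribosomal protein genes (right panel) in each of the 12 PDPN+ libraries, with the replicate number beside each point and the mean of 3 as a line. Transwell replicate 1 (2.996% and 5.10%) and alone replicate 3 (3.35% and 5.58%) lie above all other libraries.

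Transcript length separated the same pair of libraries. Among genes averaging 10 CPM or more, the slope of the log2 deviation from the 12-library mean on log2 gene length was -0.44 in transwell replicate 1 and -0.49 in alone replicate 3, against -0.02 to 0.15 in the other 4. The shortest quintile of these genes (57 to 2560 bases) had a median deviation of 0.73 in transwell replicate 1 and 0.82 in alone replicate 3, and the longest quintile (7831 to 123145 bases) one of -0.61 and -0.65. Both libraries therefore held more counts of short genes and fewer of long genes. Length took 17.1% and 21.7% of the variance of their deviations over genes, against 0.179% to 7.90% in the other 4. Their labels do not set them apart: both came from 25000 cells with an RNA integrity number of 9.9, and the other 4 had 19265 to 25000 cells and numbers of 9.9 to 10.

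**Figure D2:**
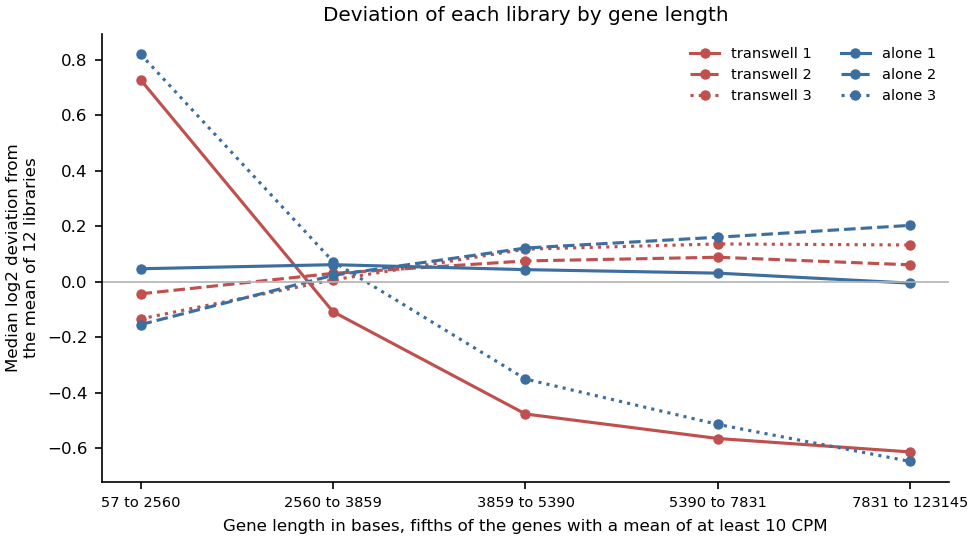
Median log2 deviation from the mean of the 12 PDPN+ libraries (vertical axis) for quintiles of the genes by length in bases (horizontal axis), 1 line per library of the transwell (red) and alone (blue) groups. The lines of transwell replicate 1 and alone replicate 3 run from 0.73 and 0.82 for the shortest genes down to -0.61 and -0.65 for the longest, and the other 4 stay between -0.15 and 0.20 at both ends.

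Each group held 1 such library, and the group means lay closer together than the spread within the groups for all of these measures but the share of the top genes. The mitochondrial share averaged 1.69 ± 1.13% in transwell cells and 1.80 ± 1.36% in cells alone (SD, n = 3 each, exact two-sided permutation p = 0.8). The slope on length over all genes tested averaged -0.0586 ± 0.159 in transwell cells and -0.0537 ± 0.186 in cells alone (SD, n = 3 each, exact permutation p = 1). Ribosomal protein genes averaged 3.10 ± 1.74% in transwell cells and 3.07 ± 2.19% in cells alone (exact permutation p = 0.9, n = 3 each). The 100 genes with the most counts took 23.7 ± 3.02% in transwell cells and 21.5 ± 1.69% in cells alone (exact permutation p = 0.3, n = 3 each). Detected genes averaged 25301 ± 331 in transwell cells and 25088 ± 892 in cells alone (exact permutation p = 0.7, n = 3 each). A design of 3 against 3 cannot give a p under 0.1, and the spread within each group was wide. Within batches the picture differs, because batch mbb336 sets transwell replicate 1 against a library without the short-gene excess, and batch mbb340 sets transwell replicate 3 against alone replicate 3. Batch mbb339 compares 2 libraries without that excess. Among genes averaging 10 CPM or more their slopes were 0.036 (transwell) and 0.148 (alone).

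The pair of libraries also resembled each other across groups. Over 9511 genes the Pearson r of log2 CPM between transwell replicate 1 and alone replicate 3 was 0.917, higher than that of either with any other of the 6 libraries (0.681 to 0.825). Transwell replicate 2 resembled alone replicates 1 and 2 with r of 0.963 and 0.960, above its r of 0.918 with transwell replicate 3. These correlations are across genes, which are no independent replicates, and they describe only how the libraries sort.

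A few genes were present almost in 1 library alone. B3gat2, which encodes a glucuronyltransferase, reached 787 CPM in alone replicate 3 and at most 2.33 CPM in the other 11 PDPN+ libraries. Plekhh1 reached 201.7 CPM in the same library and at most 3.34 CPM elsewhere, and the complement gene C4a, a near copy of C4b, 46.1 CPM and at most 0.771 CPM. Map3k15, a kinase gene, was at 220.2 CPM in transwell replicate 1. This measure was chosen after the values were seen, and co-culture and BMS493 libraries held up to 4 such genes each.

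No gene passed the test between transwell cells and cells alone. The edgeR quasi-likelihood test on all 12 PDPN+ libraries called 0 of 19134 genes (0% of those tested) at an adjusted p under 0.05, and the smallest adjusted p was 1. At an unadjusted p under 0.05 there were 426 genes (2.23% of those tested), 275 higher (1.44%) and 151 lower (0.789%). The median log2 fold change of transwell over alone was 0.01 over all genes, and 51.4% of genes had a positive one. All log2 fold changes below are of transwell over alone from that fit, with 95% intervals in brackets, and none of these genes was called. The gene lists below and their named members were chosen with earlier results of these data known. Shares of list members set beside those of all genes are therefore a description and no test. DESeq2 called 13 genes, 4 higher and 9 lower, with 636 of 19134 at an unadjusted p under 0.05. limma with library quality weights called 0, with 2142 of 19134 genes at an unadjusted p under 0.05. It gave transwell replicate 1 and alone replicate 3 weights of 0.164 and 0.152 against 0.998 to 4.54 for the other 4.

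The precision set what could be seen. Over the 9740 genes at 10 CPM or more on average in either group, the median half-width of the 95% interval was 0.86 on the log2 scale (quartiles 0.67 and 1.13), and 4371 of them had an interval wholly within 1 log2 unit of 0. Without transwell replicate 1 and alone replicate 3 the count of called genes was again 0 in edgeR (652 of 19576 at an unadjusted p under 0.05, 3.33%, smallest adjusted p 0.718). Groups without overlap, meaning that all 3 libraries of one group lay above all 3 of the other, occurred at 488 genes for higher (2.55%) and 467 for lower (2.44%) in transwell cells.

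Saa3, Lcn2, Sod2, Ccl2, Ccl7 and Cxcl1, all acute phase, NF-kappaB or chemokine genes, had higher values in transwell cells in all 3 batches, though none was called. Saa3 (chromosome 7, 46711998 to 46715700), which encodes an acute phase apolipoprotein that fibroblasts and adipose tissue make in inflammation, lay at 19700, 11700 and 12220 CPM in transwell cells, against 3150, 3285 and 2167 CPM in cells alone. All transwell libraries exceeded all libraries of cells alone, and the log2 fold change was 2.34 (0.34 to 4.34). Within batches mbb336, mbb339 and mbb340 the log2 difference was 2.64, 1.83 and 2.50. Without transwell replicate 1 and alone replicate 3 the log2 fold change was 1.87. Saa3 belongs to a family of close relatives, and reads shared with them cannot be told apart with certainty.

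The 250 bases before the annotated start of Saa3 are shown because the groups of this acute phase gene were apart in every batch. They come from RefSeq (GRCm38.p6, chr7:46715677-46715926, minus strand), and the capitals mark the match to TTGCNNAA, the core letters that C/EBP factors of the acute phase response recognise.
Saa3: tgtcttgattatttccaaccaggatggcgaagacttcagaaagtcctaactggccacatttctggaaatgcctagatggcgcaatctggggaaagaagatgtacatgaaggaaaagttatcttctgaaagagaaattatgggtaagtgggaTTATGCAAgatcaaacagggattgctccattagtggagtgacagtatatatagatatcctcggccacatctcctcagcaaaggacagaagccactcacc
The match lies on the opposite strand of the gene, from -99 to -92 relative to the start. On both strands, 9.55% of the 27025 promoters of this length hold TTGCNNAA, and 3 of the 15 matched promoters of the acute phase list (20%) do. A match describes these letters and no binding.

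Lcn2 (chromosome 2, 32384633 to 32388252), which encodes the iron-scavenging acute phase protein lipocalin 2, lay at 39.01, 22.5 and 68.3 CPM in transwell cells, against 8.11, 3.49 and 19.1 CPM in cells alone. Sod2, the mitochondrial superoxide dismutase that NF-kappaB induces, lay at 249, 305 and 462 CPM in transwell cells, against 156, 171 and 205 CPM in cells alone. Neither gene's groups overlapped, though their intervals included 0 (log2 fold change 2.08, -0.65 to 4.81, for Lcn2 and 0.94, -0.55 to 2.42, for Sod2). Of the 20 members of the NF-kappaB feedback and acute phase list, 17 had a positive log2 fold change, against 51.4% of all genes. The 3 named were those with separated, higher groups (2.55% of all genes had them), and 0 were separated and lower (2.44% of all genes were). The list median was 0.44, with medians of 0.01, 0.23 and 1.41 in batches mbb336, mbb339 and mbb340.

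Ccl2, Ccl7 and Cxcl1 were the chemokine genes with separated groups. Ccl2, which encodes the main monocyte attractant, lay at 360.5, 423 and 460 CPM in transwell cells, against 192, 223 and 209 CPM in cells alone. Ccl7, its neighbour on chromosome 11 with a like function, lay at 175, 316 and 566 CPM in transwell cells, against 95.5, 144 and 151.5 CPM in cells alone. Cxcl1, a neutrophil attractant, lay at 44.75, 76.5 and 85.8 CPM in transwell cells, against 19.3, 36.3 and 32.5 CPM in cells alone. In each of these genes the groups did not overlap and each of the 3 batches had a positive difference, between 0.87 and 1.90 on the log2 scale. The fitted log2 fold changes were 0.99 (-1.41 to 3.401) for Ccl2, 1.43 (-1.24 to 4.10) for Ccl7 and 1.23 (-1.38 to 3.85) for Cxcl1, all with intervals that include 0, and that of Ccl7 was 0.91 without transwell replicate 3. Their intervals use the spread over all 12 libraries, and in co-culture Ccl2 alone ran from 52.7 to 457 CPM.

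Il6 (chromosome 5, 30013114 to 30019981), an inflammatory cytokine that stromal cells make in quantity, lay at 24.0, 32.6 and 283 CPM in transwell cells, against 12.4, 14.9 and 16.6 CPM in cells alone. Its log2 fold change of 2.95 (-0.41 to 6.32) rested largely on transwell replicate 3, and was 0.95 without that library. Cxcl5, another neutrophil attractant, lay at 32.3, 178 and 264 CPM in transwell cells, against 22, 35.8 and 46.25 CPM in cells alone, with overlap. Csf3, the granulocyte growth factor, lay at 0.0922, 5.08 and 27.0 CPM in transwell cells, against 0.439, 0.685 and 0 CPM in cells alone, so that the difference ran the other way in batch mbb336. Its log2 fold change of 4.85 was 2.79 without transwell replicate 3.

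Of 21 measured inflammatory cytokines and chemokines, 19 had a positive log2 fold change (51.4% of all genes did). Separated, higher groups were found in 4 (Il6, Ccl2, Ccl7 and Cxcl1), against 2.55% of all genes. None was separated and lower, and 0 passed an unadjusted p under 0.05. Their median was 1.33, with medians of 0.73, 0.73 and 1.90 in batches mbb336, mbb339 and mbb340. Without transwell replicate 1 and alone replicate 3 the median was 1.52. There 10 of the 21 were higher in both remaining transwell libraries than in both of cells alone, against 19.7% of all genes. In that setting 0 of the 21 were higher at an unadjusted p under 0.05, against 1.87% of all genes. Batch mbb340 is then present only in the transwell group, so batch and culture cannot be told apart for most of the difference. In 15 of the 21 the highest of the 6 values was that of transwell replicate 3, against 3929 of all 19134 genes.

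**Figure D3:**
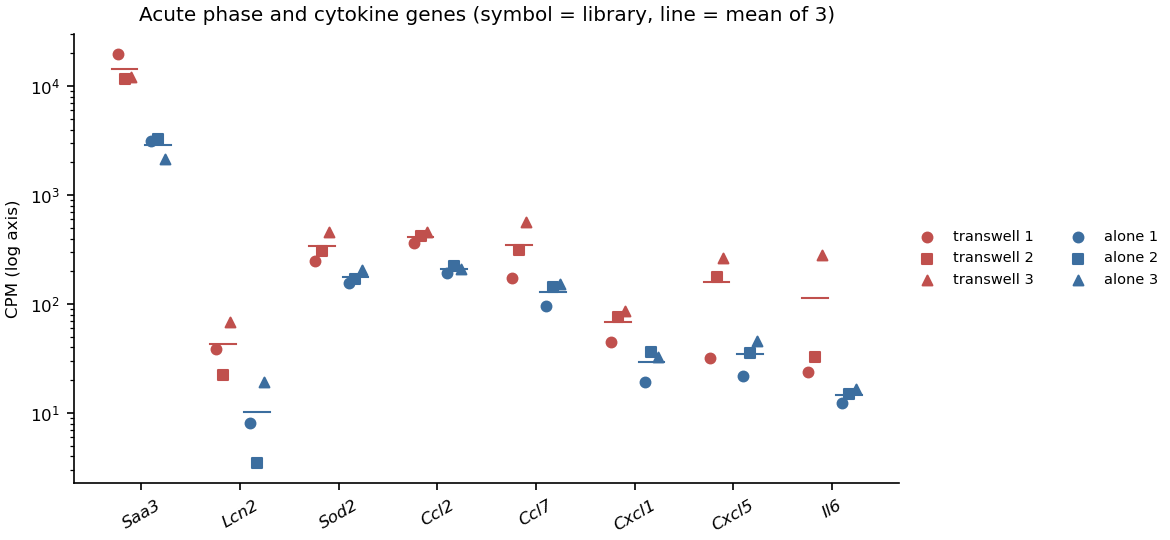
CPM on a log axis for acute phase and cytokine genes in the 3 transwell libraries (red, left of each pair) and the 3 libraries of cells alone (blue, right), with the arithmetic mean as a line and the symbol giving the replicate. Red and blue points do not overlap except for Cxcl5, and Il6 has 283 CPM in transwell replicate 3 against 24.0 and 32.6 CPM in the other transwell libraries.

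Genes of glycolysis and the hypoxia response were higher in transwell replicates 2 and 3, with the highest values in transwell replicate 3. Ndufa4l2 (chromosome 10, 127514967 to 127517154), a mitochondrial protein gene that hypoxia-inducible factor induces, lay at 7.22, 5.78 and 55.65 CPM in transwell cells, against 0.62, 0.62 and 1.19 CPM in cells alone. The groups were apart in every batch (log2 differences 3.49, 3.16 and 5.51), and it had the smallest unadjusted p among the genes named for higher values. Its log2 fold change was 4.81 (2.82 to 6.80), or 2.99 without transwell replicate 3. DESeq2 called it with an adjusted p = 1.62e-05, whereas edgeR gave an adjusted p = 1. It also lay at 20.2 to 68.6 CPM in the co-culture cells, and it is not a member of the hypoxia and glycolysis list.

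Egln3 (chromosome 12, 54178981 to 54203860), a prolyl hydroxylase gene that marks hypoxia-inducible factor for breakdown and is itself a target of it, lay at 48.1, 55.4 and 107 CPM in transwell cells, against 39.4, 46.4 and 37.5 CPM in cells alone. Bnip3 (chromosome 7, 138890836 to 138909519), a gene of mitophagy, lay at 182, 211 and 645 CPM in transwell cells, against 151, 124 and 163 CPM in cells alone. Hk2, the inducible hexokinase that opens glycolysis, lay at 23.2, 21.8 and 54.6 CPM in transwell cells, against 13.99, 17.04 and 20.3 CPM in cells alone. These 3 were the members, of 21 measured, whose groups did not overlap, and 2.55% of all genes had separated, higher groups. Their log2 fold changes were 0.77 (0.11 to 1.43), 1.25 (0.06 to 2.43) and 0.96 (-0.29 to 2.21), and without transwell replicate 3 they were 0.32, 0.43 and 0.39.

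The 250 bases before the starts of Egln3 (RefSeq, GRCm38.p6, chr12:54203875-54204124, minus strand) and Bnip3 (chr7:138909507-138909756, minus strand) are shown because both are known targets of hypoxia-inducible factor and had separated groups. Capitals mark matches to ACGTG, the core letters of the element that this factor recognises.
Egln3: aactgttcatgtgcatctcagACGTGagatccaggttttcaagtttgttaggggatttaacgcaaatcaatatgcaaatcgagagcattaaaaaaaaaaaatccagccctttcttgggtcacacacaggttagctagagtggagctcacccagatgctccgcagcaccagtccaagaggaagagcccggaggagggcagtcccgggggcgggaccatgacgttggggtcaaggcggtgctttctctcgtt
Bnip3: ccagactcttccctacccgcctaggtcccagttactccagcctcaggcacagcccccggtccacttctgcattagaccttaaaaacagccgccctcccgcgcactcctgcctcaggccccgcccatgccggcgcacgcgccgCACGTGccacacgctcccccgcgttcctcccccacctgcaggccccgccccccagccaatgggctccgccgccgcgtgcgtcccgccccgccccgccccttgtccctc
The match in Egln3 runs from -229 to -225. Bnip3 holds 2 overlapping matches on opposite strands, from -108 to -104 and from -107 to -103. On both strands, 16.6% of the 27025 promoters hold ACGTG in this window, and 9 of the 20 matched promoters of the hypoxia and glycolysis list (45.0%) do.

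Transwell replicate 3 was also the highest library for 4 further members, whose groups overlapped. Slc16a3, the lactate exporter MCT4, lay at 18.1, 79.7 and 327.5 CPM in transwell cells, against 32.2, 39.95 and 20.7 CPM in cells alone. Slc2a1, the glucose transporter GLUT1, lay at 35.4, 93.6 and 277 CPM in transwell cells, against 46.8, 67.8 and 43.5 CPM in cells alone. In both genes transwell replicate 1 was below every library of cells alone and transwell replicates 2 and 3 above them. Pgk1, of the payoff phase of glycolysis, lay at 230, 314 and 701 CPM in transwell cells, against 173, 191 and 271 CPM in cells alone. Ldha, lactate dehydrogenase A, lay at 1287, 2139 and 3658 CPM in transwell cells, against 1235, 1329 and 1561 CPM in cells alone. Without transwell replicate 3 the log2 fold changes of Slc16a3, Slc2a1, Pgk1 and Ldha were 0.66, 0.29, 0.36 and 0.31, against 2.20, 1.36, 0.97 and 0.78 with it.

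Of the 21 measured hypoxia and glycolysis genes, 20 had a positive log2 fold change (51.4% of all genes did), 3 were at an unadjusted p under 0.05 (1.44% of all genes) and 0 were called. The list median was 0.77, with -0.10, 0.43 and 1.51 in batches mbb336, mbb339 and mbb340. Transwell replicate 3 held the highest of the 6 values in 19 of the 21 genes, against 3929 of all 19134 genes. Without transwell replicate 1 and alone replicate 3, 13 members were at an unadjusted p under 0.05 and higher, against 1.87% of all genes, the median was 1.07 and 17 were separated and higher (19.7% of all genes). In that setting batch mbb340 is present only in the transwell group, so batch and culture cannot be told apart for most of the difference, and transwell replicate 3 came from 19265 cells against 25000 for the others. In batch mbb339, which compares 2 libraries without the short-gene excess, the median was 0.43. The same batch gave medians of 0.47 for cytosolic ribosomal protein genes, 0.44 for mitochondrial genome protein genes and 0.29 for nuclear respiratory chain genes.

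**Figure D4:**
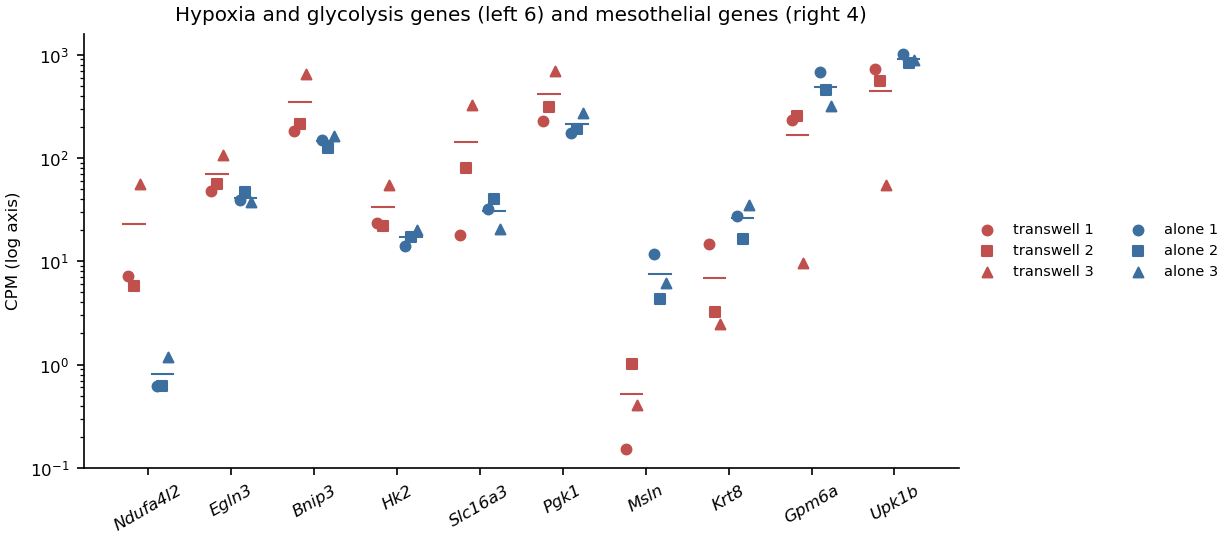
CPM on a log axis for 6 hypoxia and glycolysis genes and 4 mesothelial genes in the 3 transwell libraries (red, left of each pair) and the 3 libraries of cells alone (blue, right), with the arithmetic mean as a line and the symbol giving the replicate. Triangles, transwell replicate 3, are the highest red points for the first 6 genes and the lowest red points for Krt8, Gpm6a and Upk1b.

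The amino acid stress list had 1 of 20 members at an unadjusted p under 0.05 and higher (1.44% of all genes were). Trib3, a pseudokinase gene that ATF4 induces, lay at 19.8, 25.5 and 100.1 CPM in transwell cells, against 15.5, 17.2 and 21.4 CPM in cells alone (log2 fold change 1.43, 0.24 to 2.61). Without transwell replicate 3 its log2 fold change was 0.33. Of the 20 members, 14 had a positive log2 fold change (51.4% of all genes did), 0 had separated groups and the median was 0.24. Transwell replicate 3 again held the highest value, in 15 of 20, against 3929 of all 19134 genes.

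Mesothelial genes lay lower in transwell cells, mostly in transwell replicate 3. The summed level of 16 mesothelial and epithelial markers was 2819, 2628 and 405 CPM in transwell cells, against 4835, 3907 and 2607 CPM in cells alone, and 15 of the 16 had counts in each of these libraries. In batches mbb336, mbb339 and mbb340 the same sum was 2061, 490 and 115 CPM in co-culture cells and 2297, 621 and 92.4 CPM in the BMS493 group. The BMS493 libraries also held macrophage transcripts, given below, so their values cannot be read as those of the drug alone. Fewer mesothelial cells and less RNA per cell cannot be told apart in bulk samples, here or in any result that follows. Of the 15 members tested, 2 had a positive log2 fold change, 4 had separated, lower groups (2.44% of all genes did), 1 was at an unadjusted p under 0.05 and lower (0.789% of all genes), and the median was -0.52. Without transwell replicate 1 and alone replicate 3 the median was -1.62, 12 of the 15 were lower in both remaining transwell libraries than in both remaining libraries of cells alone (19.3% of all genes were), and 0 were lower at an unadjusted p under 0.05 (1.4% of all genes were). In that setting batch mbb340 is present only in the transwell group. With the replicate block added to it, the log2 fold changes of Krt8, Gpm6a and Upk1b turned to 0.0049, 0.35 and 2.07, and that of Msln was -1.05.

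Msln (chromosome 17, 25748613 to 25754378), the surface protein mesothelin, lay at 0.154, 1.01 and 0.402 CPM in transwell cells, against 11.8, 4.31 and 6.20 CPM in cells alone (log2 fold change -3.83, -7.52 to -0.13). It was low in all transwell libraries. Krt8, a keratin of simple epithelia, lay at 14.8, 3.21 and 2.47 CPM in transwell cells, against 27.3, 16.6 and 35.3 CPM in cells alone. Upk1b, a uroplakin gene of mesothelium, lay at 728, 556 and 54.6 CPM in transwell cells, against 1027, 825 and 880 CPM in cells alone. Gpm6a, a membrane glycoprotein gene, lay at 231, 258 and 9.62 CPM in transwell cells, against 682, 451.5 and 321 CPM in cells alone. The intervals for Krt8, Upk1b and Gpm6a included 0, and without transwell replicate 3 the log2 fold changes of Upk1b and Gpm6a were -0.51 and -0.9976, against -1.03 and -1.54 with it. That of Krt8 was -1.95, and -3.22 without transwell replicate 1.

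Fibroblast identity genes showed no common direction. Of 22 members 10 had a positive log2 fold change, 0 were at an unadjusted p under 0.05, and the median was -0.04. Separated, lower groups were found in 1 member (2.44% of all genes had them), and separated, higher groups in 0 (2.55% of all genes). Cd34, a sialomucin of adventitial fibroblasts, was the one with separated groups, at 33.1, 51.2 and 6.32 CPM in transwell cells, against 100.4, 70.4 and 93.7 CPM in cells alone (log2 fold change -1.55, -4.70 to 1.61, but 0.86 with the replicate block and without transwell replicate 1 and alone replicate 3). Col1a1, the main fibrillar collagen chain, spread from 1398 to 10100 CPM in transwell cells and from 964 to 6703 CPM in cells alone, with the lowest value of each group in the library of short-gene excess (log2 fold change 0.50, -1.10 to 2.11, and -0.20 without transwell replicate 3).

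Retinoid genes are the link to the title of the series. Aldh1a2, the main retinoic acid-making enzyme of omental stroma, lay at 250, 304 and 372 CPM in transwell cells, against 317.5, 323 and 239 CPM in cells alone. The groups overlapped, and the interval of the log2 fold change (0.07, -0.73 to 0.88) excludes a change of 1 log2 unit in either direction, while its sign turned without transwell replicate 3 or alone replicate 3 (both -0.09). The related Aldh1a1 lay at 252, 238 and 31.2 CPM in transwell cells, against 362, 268 and 255 CPM in cells alone. Aldh1a3 lay at 12.9, 8.99 and 5.77 CPM in transwell cells, against 14.8, 15.5 and 39.95 CPM in cells alone. Both had separated, lower groups (2.44% of all genes did), with intervals that include 0 (-4.11 to 2.58 and -3.02 to 0.33 on the log2 scale). The log2 fold change of Aldh1a1 was -0.76, but -0.28 without transwell replicate 3 and 1.22 with the replicate block and without transwell replicate 1 and alone replicate 3, and that of Aldh1a3 was -1.34, but -0.76 without alone replicate 3.

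Crabp2, which carries retinoic acid to its receptors, lay at 2.49, 1.62 and 31.2 CPM in transwell cells, against 0.516, 1.18 and 2.60 CPM in cells alone (log2 fold change 3.03, 0.74 to 5.33), and the value was 0.51 without transwell replicate 3. Rarg, a retinoic acid receptor gene, lay at 20.8, 16.3 and 22.2 CPM in transwell cells, against 13.97, 14 and 6.10 CPM in cells alone, with no overlap (log2 fold change 0.80, 0.06 to 1.54, and 0.46 without alone replicate 3). The median was 0.32 over 14 uptake and synthesis genes and 0.13 over 20 receptor and response genes. In each list 1 gene was at an unadjusted p under 0.05 and higher, Crabp2 and Rarg, and 1.44% of all genes were. Separated, higher groups were found in 1 of the 20 receptor and response genes, against 2.55% of all genes.

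Growth factor and Wnt genes held single members of note. Pdgfc, a platelet-derived growth factor, lay at 15.2, 14.2 and 14.1 CPM in transwell cells, against 29.4, 30.03 and 20.7 CPM in cells alone. It was lower in every batch, with a log2 fold change of -0.88 (-1.75 to -0.02). Vegfc, the lymphatic growth factor, lay at 16.6, 26.8 and 20.7 CPM in transwell cells, against 8.83, 13.45 and 9.44 CPM in cells alone, about equal in its log2 difference over batches mbb336, mbb339 and mbb340 (0.91, 0.996 and 1.13). Wnt2, a secreted Wnt ligand, lay at 3.01, 4.75 and 2.18 CPM in transwell cells, against 8.91, 7.31 and 12.8 CPM in cells alone (log2 fold change -1.55, -2.64 to -0.45). In all 3 genes the groups did not overlap. Of the 21 ligands and receptors, 2 had separated, higher groups and 1 had separated, lower groups. Of the 16 Wnt genes, 0 were separated and higher and 1 was separated and lower. Over all genes these shares were 2.55% for higher and 2.44% for lower. The list medians were 0.08 for 21 ligands and receptors and -0.24 for 16 Wnt genes.

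Matrix genes had no common direction over the batches. The 36 collagen and matrix genes had a median of 0.15, with -0.81, -0.39 and 1.47 in batches mbb336, mbb339 and mbb340, and 0 were at an unadjusted p under 0.05. P4ha2, a collagen prolyl hydroxylase gene that hypoxia also induces, lay at 47.1, 132 and 534 CPM in transwell cells, against 65.0, 80.4 and 49.3 CPM in cells alone, and its log2 fold change of 1.87 was 0.46 without transwell replicate 3. Has2, a hyaluronan synthase gene, lay at 5.44, 11.95 and 208 CPM in transwell cells, against 18.1, 31.8 and 21.1 CPM in cells alone. Its direction hung on transwell replicate 3, since the log2 fold change was 1.67 with that library and -1.45 without it. Ptx3, a pentraxin that binds hyaluronan matrix and responds to interleukin 1, lay at 49.6, 111 and 214 CPM in transwell cells, against 33.2, 52.35 and 48.2 CPM in cells alone, with overlap (log2 fold change 1.49, and 0.85 without transwell replicate 3).

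The remaining genes named by rule are those with separated groups, at least 10 CPM on average in the higher group and the smallest unadjusted p, none of them called. Of the 12 named for higher values, Saa3 and Ndufa4l2 are given above. Bmpr2, the type 2 receptor for bone morphogenetic proteins, lay at 39.1, 33.1 and 53.95 CPM in transwell cells, against 21.0, 26.6 and 16.3 CPM in cells alone (log2 fold change 0.98, 0.32 to 1.64). Smad6, which inhibits the same pathway and was among the 12 named for lower values, lay at 31.7, 43.85 and 22.1 CPM in transwell cells, against 53.03, 79.5 and 52.45 CPM in cells alone (-0.92, -1.69 to -0.15). Fzd3, a Wnt receptor gene, lay at 14.2, 13.5 and 9.48 CPM in transwell cells, against 20.1, 19.7 and 19.4 CPM in cells alone (-0.67, -1.22 to -0.12).

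Phyh, of peroxisomal fatty acid oxidation, lay at 70.3, 50.75 and 67.0 CPM in transwell cells, against 41.3, 35.5 and 32.05 CPM in cells alone. Stc2, the secreted hormone stanniocalcin 2, lay at 4.21, 5.92 and 27.6 CPM in transwell cells, against 2.92, 3.92 and 2.63 CPM in cells alone, and its log2 fold change of 1.995 was 0.68 without transwell replicate 3. Prr5l and Deptor, which both bind mTOR complexes, had log2 fold changes of -1.66 (-2.83 to -0.49) and -1.29 (-2.41 to -0.16). Tfam, the mitochondrial transcription factor, lay at 29.4, 36.3 and 28.3 CPM in transwell cells, against 36.5, 40.7 and 69.8 CPM in cells alone (-0.65, -1.26 to -0.03, and -0.34 without alone replicate 3). Its highest value lay in alone replicate 3, the library with the largest mitochondrial share, and a link between them was not tested. The others for higher values were Pde10a (1.55), Fcgr3 (1.64), Kctd15 (0.87), Zc3h4 (1.05), Hpse (1.14) and Abhd18 (1.08), with the log2 fold change in each bracket. The others for lower values were Kazald1 (-1.50), Rnft1 (-0.56), Pnpla7 (-1.17), Cep250 (-0.65), Tdrkh (-0.81) and Dxo (-0.76). Several of these leaned on 1 library. Without transwell replicate 1 Abhd18 was at 0.33, Fcgr3 at 0.98 and Zc3h4 at 0.63, without transwell replicate 3 Hpse was at 0.52, Kctd15 at 0.54 and Pde10a at 1.003, and without alone replicate 3 Kazald1 was at -0.65, all as log2 fold changes. Map3k15 and Plekhh1 complete the named genes and rest on the single libraries given above: their log2 fold changes of 7.97 and -7.26 were 2.16 without transwell replicate 1 and -1.71 without alone replicate 3.

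Macrophage transcripts were present in transwell replicate 1. The summed level of 16 macrophage markers was 852, 87.3 and 133 CPM in transwell cells, against 149, 74.7 and 88.6 CPM in cells alone and 74507 to 147180 CPM in the transwell macrophages. The same sum was 2204 to 3316 CPM in PDPN+ cells from direct co-culture, and 2257, 5310 and 3205 CPM in BMS493 replicates 1, 2 and 3. Lyz2, the macrophage lysozyme, lay at 660, 48.0 and 87.7 CPM in transwell cells, against 90.3, 39.8 and 56.6 CPM in cells alone (log2 fold change 2.09, 0.31 to 3.88), and the value was 0.10 without transwell replicate 1. C1qc, a complement chain of macrophages, lay at 44.0, 2.04 and 1.78 CPM in transwell cells, against 3.38, 1.60 and 1.75 CPM in cells alone. Arg1, the arginase of alternatively activated macrophages, lay at 61.7, 2.85 and 9.39 CPM in transwell cells, against 3.12, 2.38 and 2.33 CPM in cells alone. Without transwell replicate 1 the log2 fold changes of C1qc and Arg1 were -0.26 and 1.21, against 2.82 and 3.23 with it.

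Of the 16 macrophage markers 5 were at an unadjusted p under 0.05 and higher (1.44% of all genes were). A positive log2 fold change was found in 15 (51.4% of all genes). Transwell replicate 1 held the highest of the 6 values in 13, against 4640 of all 19134 genes. The median of 1.75 was -0.07 without transwell replicate 1 and alone replicate 3. Fcgr3, an Fc receptor gene named above, is also a macrophage gene, and it was at 23.9 CPM in transwell replicate 1 against 7.01 and 10.9 CPM in transwell replicates 2 and 3. Saa3 was likewise highest in transwell replicate 1, and the part of macrophage transcripts in that value was not tested. Transwell replicates 2 and 3 had macrophage sums of 87.3 and 133 CPM and Saa3 levels of 11700 and 12220 CPM.

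Interferon-stimulated genes were also uneven over the transwell libraries. Of 33 members 23 had a positive log2 fold change (51.4% of all genes did), with a median of 0.34. The highest value lay in transwell replicate 1 in 25, against 4640 of all 19134 genes. The median was -0.52 without that library and alone replicate 3. The medians of batches mbb336, mbb339 and mbb340 were 0.80, -0.01 and -0.45.

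Housekeeping lists had opposite signs in batches mbb336 and mbb340. The 41 cytosolic ribosomal protein genes, with a median length of 1734 bases, had median log2 differences of transwell over alone of 1.59 in batch mbb336, 0.47 in batch mbb339 and -1.65 in batch mbb340, and a fitted median of 0.02. The 26 nuclear respiratory chain genes gave 1.27, 0.29 and -1.49, with a fitted median of -0.04. The 13 protein genes of the mitochondrial genome gave 1.18, 0.44 and -1.62, and all 13 had their highest value in alone replicate 3. Over the 9740 genes at 10 CPM or more, the differences of batches mbb336 and mbb340 had a Pearson r of -0.646, against 0.235 for batches mbb336 and mbb339 and -0.095 for batches mbb339 and mbb340. These are correlations across genes, given as a description. Of the 9740 genes, 363 were higher and 722 lower in all 3 batches.

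**Figure D5:**
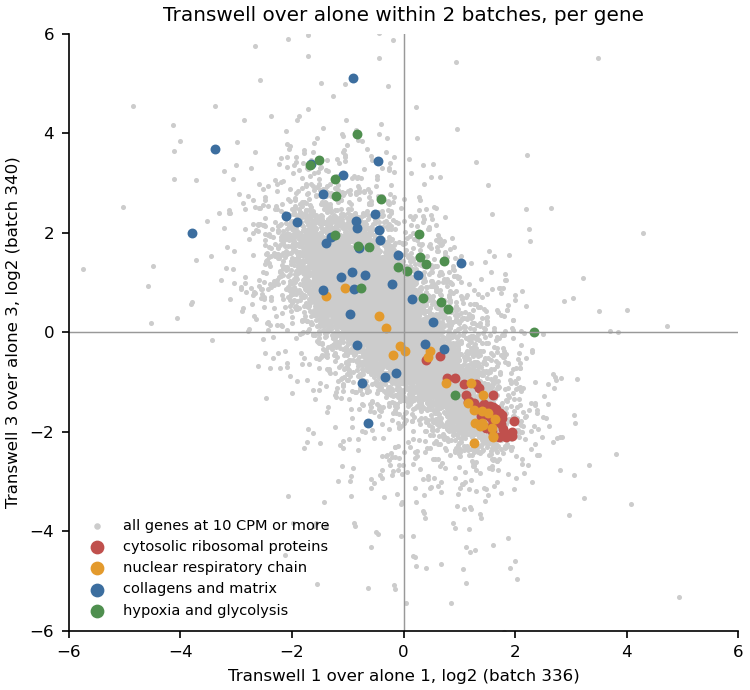
Log2 difference of transwell over alone per gene in batch mbb336 (horizontal axis) and batch mbb340 (vertical axis), for genes at 10 CPM or more in either group (grey) and 4 gene lists (colours), and 46 genes lie outside the plotted range. Ribosomal protein and respiratory chain genes lie mostly at lower right (list medians 1.59 and -1.65, 1.27 and -1.49), and collagen and hypoxia genes mostly at upper left (-0.81 and 1.47, -0.10 and 1.51).

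Of the other lists, none had a called member. Medians lay between -0.19 and 0.21 for complement, contractile, TGF-beta, Yap, matrix protease, insulin-like growth factor, cholesterol synthesis, cell cycle, p53, heat shock, immediate early, oxidative stress, LXR and omental signal genes, and the median was 0.69 for 9 hyaluronan genes and -0.39 for 16 adipocyte genes. Of 15 macrophage product and polarisation genes, 2 were at an unadjusted p under 0.05 and higher (1.44% of all genes were). Their median was 1.17, with 0.42 without transwell replicate 1 and alone replicate 3. Cell cycle genes had a median of 0.01 with 13 of 26 positive, and medians of -0.95, 0.19 and 0.51 in batches mbb336, mbb339 and mbb340. Without transwell replicate 1 and alone replicate 3, 16 of the 26 were separated and higher (19.7% of all genes were). None of the 26 was at an unadjusted p under 0.05 there, and in that setting batch mbb340 is present only in the transwell group.

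The direct co-culture gave the contrast for contact. In the same fit 1 of 19134 genes was called between transwell cells and co-culture cells (0.00523%), and it was lower: Cd84 (chromosome 1, 171839697 to 171890718), a leukocyte adhesion receptor gene, at 1.41, 1.12 and 0.804 CPM in transwell cells, against 16.0, 19.9 and 15.4 CPM in co-culture cells (log2 fold change -3.94, SE 0.400, adjusted p = 0.0131, edgeR). The cells alone held 2.25, 1.70 and 2.43 CPM of it. Co-culture replicates 2 and 3 came from 3730 and 2148 cells, against 19265 to 25000 for the transwell libraries, and the part of this in the result was not tested. The macrophage marker sum was 87.3 to 852 CPM in transwell cells, 74.7 to 149 CPM in cells alone and 2204 to 3316 CPM in co-culture cells. Cd84 and this sum were both highest in co-culture among these 3 groups. Between transwell cells and cells alone Cd84 did not follow the sum, as it was lower in all transwell libraries. The part of macrophage transcripts in the result was not tested. At an unadjusted p under 0.05 there were 966 of the 19134 genes. DESeq2 called 136, of which 14 were higher and 122 lower in transwell cells. The call was lost with the replicate block and without transwell replicate 2 or 3 or co-culture replicate 1 or 2 (0 genes each). The source name of co-culture replicate 1 ends with the other cell type, and its title and group label were used.

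Saa3 had a higher mean in transwell cells than in either other setting, at 14539 CPM, against 1538 CPM in co-culture and 2867 CPM in cells alone. Its log2 fold change of transwell over co-culture was 3.24 with an adjusted p = 0.784 (edgeR), and all 3 transwell libraries (11700 to 19700 CPM) exceeded all 3 co-culture libraries (672 to 2027 CPM). Egln3 and Bnip3 overlapped between these groups. Egln3 lay at 48.1 to 107 CPM in transwell cells and 55.45 to 77.5 CPM in co-culture cells. Bnip3 lay at 182 to 645 CPM in transwell cells and 222 to 643 CPM in co-culture cells.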

How the data were processed

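PolyA RNA-seq of 30 libraries in 10 groups of 3 was deposited as 1 table per library. Raw counts per gene (the authors' count column, per the file headers) were used, and the RPKM that the authors deposited beside them was not tested. Reads were aligned with GSNAP to GRCm38, per the submitters' processing notes, and the sources used here give no aligner version, annotation or strand setting. The files hold 50764 gene models, of which 192 (0.0358% of counts) have no symbol. Depth in the 6 libraries compared was 29350158 to 43999182 counts, and the precision it gives is stated with the results.

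Genes passing filterByExpr were tested with edgeR 4.0.16 (quasi-likelihood, TMM, R 4.3.3) over all 12 PDPN+ libraries by group, with Benjamini-Hochberg adjustment and calls at an adjusted p under 0.05. Intervals are 95% intervals from the fit. CPM is TMM-scaled, and marker sums are per total counts. Batch differences use a prior count of 1. The steps were tested on counts simulated with known fold changes. Those counts held no short-gene excess, so that test does not show how the steps act on libraries like these. Named genes were, per direction, the 12 with the smallest unadjusted p among those averaging 10 CPM or more in either group, with separated groups and a proper symbol, since none was called, plus up to 4 members of each list and any others needed to describe it. The members and the 37 gene lists were chosen with earlier results of these data known. Library measures were compared with exact two-sided permutation tests.

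The batch label pairs the replicate numbers. Same-numbered transwell and alone libraries had correlations of their deviations of -0.382, 0.573 and -0.447 over 9511 genes. Transwell replicate 1 and alone replicate 3, which lie in different batches, had one of 0.657. With those libraries present, the values cannot decide whether pairing by batch holds. The main fit has no block because the labels give no method with one, and a blocked fit is an alternative. No pair of the 6 libraries was a copy, as chi-square per degree of freedom of their counts was at least 49.45 in all 15 pairs. Alternatives were other scalings, DESeq2 1.42.0, limma 3.58.1 with quality weights, no filter, fewer groups, a length offset, the replicate block, mitochondrial genes left out, and each replicate or batch left out. Leaving out transwell replicate 1 and alone replicate 3 together, with and without the block, was chosen after seeing the data.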

Additional observations from a re-analysis of the deposited data

How the results depend on the processing

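The count of 0 called genes between transwell cells and cells alone held under every alternative except DESeq2, which called 13; leaving out 1 replicate gave 0 to 0. With the replicate block the count was 0 (467 of 19134 genes at an unadjusted p under 0.05), and the block changed no other call in that comparison. Between transwell and co-culture cells the main count of 1 became 136 with DESeq2, 3 with no filter, and 0 with the replicate block, with the length offset and with both; leaving out 1 replicate gave 0 to 5. Of 1364 alternative values of 62 genes, 1338 kept direction and, where an adjusted p was given, side of the threshold. DESeq2 gave no adjusted p for Saa3, Il6, Ccl2, Cxcl1, Map3k15 and Plekhh1, which are counted there by direction only. Of the other values 1 was called (Ndufa4l2, 4.81, DESeq2) and 25, in 12 genes, had the other direction. The cause was not tested.

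Log2 fold changes in the other direction were, for Pdpn, -0.14 with quality weights, -0.015 with no filter, -0.099 and -0.015 without batches mbb336 and mbb339, and -0.14 without transwell replicate 1 and alone replicate 3. They were -0.27 (Lyz2) and -0.36 (C1qc) with quality weights, -0.42 for C1qc without those 2 libraries, and -0.23 (Aldh1a2), -0.67 (Col1a1) and -1.53 (Has2) without batch mbb340. Without the 2 libraries and with the replicate block they were 0.0049 (Krt8), 0.35 (Gpm6a), 2.07 (Upk1b), 0.86 (Cd34), 1.22 (Aldh1a1), -0.46 (Has2) and -0.0072 (Arg1). Leaving out 1 replicate gave -0.17 to 0.12 for Pdpn, -0.26 to 3.33 for C1qc, -0.090 to 0.19 for Aldh1a2, -0.20 to 1.09 for Col1a1 and -1.45 to 2.20 for Has2. Leaving out 1 replicate moved each difference in library measures by less than the larger SD of its groups, and some changed sign. The common coefficient of variation between libraries was 0.573, and 0.485 without those 2 libraries.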
